A study of Mus musculus with 83 samples.

Results

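Chemokines and chemokine receptors were followed in the colon of 83 male C57BL/6J/Ukj mice over 5 ages. The genes were chosen by name: protein-coding genes whose symbol begins with Ccl, Cxcl, Ccr or Cxcr and a number, together with Cx3cl1, Xcl1, Xcr1 and the 4 atypical receptors Ackr1 to Ackr4. This gave 63 of the 37764 genes in the count table, with 60 different symbols, of which 41 genes encode ligands and 22 encode receptors. The groups were 16 mice aged 3 months, 16 aged 9, 16 aged 15, 17 aged 24 and 18 aged 28 months, all males of this inbred strain, for which the labels name no treatment and no altered allele. RNA came from a lengthwise piece of the rinsed proximal colon, and the defining markers of epithelium and smooth muscle stood at median scores of 10.4 and 9.37 log2 CPM (counts scaled to library size). Each of the 3 batches in which libraries were made held 4 to 7 mice of every age. Total counts per mouse ran from 23026370 to 75838290.

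Chemokines are small secreted proteins that guide leukocytes along concentration gradients by binding G protein-coupled receptors. They are divided into CC, CXC, CX3C and XC groups by the spacing of their first cysteines, and atypical receptors bind them without classical G protein signaling and clear them from tissue. In the gut some are made constantly and place lymphocytes and plasma cells in the mucosa and in lymphoid follicles, whereas others are induced during inflammation and draw monocytes, neutrophils, eosinophils or effector T cells.

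Of the 63 genes, 45 had enough counts to be tested. Differences between ages are log2 fold changes from a quasi-likelihood model fitted to all 18325 genes that passed the same filter, with library batch as a term, and p-values were adjusted over all those genes with a threshold of 0.1. From 3 to 28 months 14 of the 45 genes were higher, against 23.5% of all tested genes, and 5 were lower, against 25.9%. The median log2 fold change was 0.15 for the chemokine system and -0.0087 for all genes, and the median size without its sign was 0.24 against 0.14. That size was also larger from 9 to 15 months, at 0.12 against 0.055, a step in which none of the 45 was called. At an unadjusted p below 0.05 from 3 to 28 months were 42.2% of the 45, against 49.5% of all genes. Over all 5 ages 26 of the 45 differed in some way, a share close to the 54.9% of all genes, and 9 deviated from a linear course over age, against 16.2%.

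Between neighbouring ages fewer genes moved. From 3 to 9 months 6 were higher, against 3.64% of all genes, and 1 was lower, against 5.05%. These 7 numbered 3 or 4 without replicates 10, 13, 15 or 16 at 3 months or replicate 10 at 9 months. From 9 to 15 months edgeR called none, against 0.251% higher and 0.18% lower among all genes, with 4 of the 45 (8.89%) at an unadjusted p below 0.05, against 9.18% of all genes, and DESeq2 called 0 as well. Without replicate 16 at 15 months edgeR called 1. From 15 to 24 months 4 were higher, against 6.28%, and 1 was lower, against 7.24%. These 5 numbered 8 without replicate 5 at 24 months. From 24 to 28 months 1 was higher, against 5.66%, and 3 were lower, against 6.01%. These 4 numbered 2 without replicates 3 or 4 at 24 months or replicates 1 or 7 at 28 months.

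Some mice differed in tissue makeup, and the fit was repeated without them. That fit also held fewer mice, and the part of tissue makeup in calls lost there was not tested. Marker scores, each the mean log2 CPM of a list of cell type genes, or the summed CPM of pancreas markers set 10 of the 83 mice apart. A low smooth muscle score, between 7.05 and 7.98 against a median of 9.38 in the other mice, marked replicates 10, 12 and 16 at 3 months and replicates 4 and 6 at 9 months. Replicate 13 at 9 months had a high and replicate 16 at 15 months a low epithelium score. Replicates 11 and 16 at 24 months and 14 at 28 months held 58.2 to 120.2 CPM of pancreatic enzyme mRNA, against at most 3.0 CPM in the other mice. Without these 10 mice the genes called from 3 to 9 months numbered 1 in place of 7, the receptor Ccr7, and those called from 3 to 28 months numbered 16 in place of 19, so values without them are given beside each change from 3 to 9 months. Of the smooth muscle markers 0 of 5 were higher and 0 lower in that step. From 3 to 28 months 23.5% of all tested genes were higher and 25.9% lower, shares that apply to the marker counts of that interval here and below. In that interval mast cell, mesothelium and blood endothelium markers were higher in 3 of 3, 3 of 3 and 4 of 5 tested genes. Those of neutrophils were higher in 3 of 5 with 1 lower, and those of fibroblasts in 1 of 4 with 1 lower. Epithelial markers were lower in 2 of 5, and none of the dendritic cell, smooth muscle, adipocyte, enteric glia and plasma cell markers passed the test from 3 to 28 months.

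**Figure D1:**
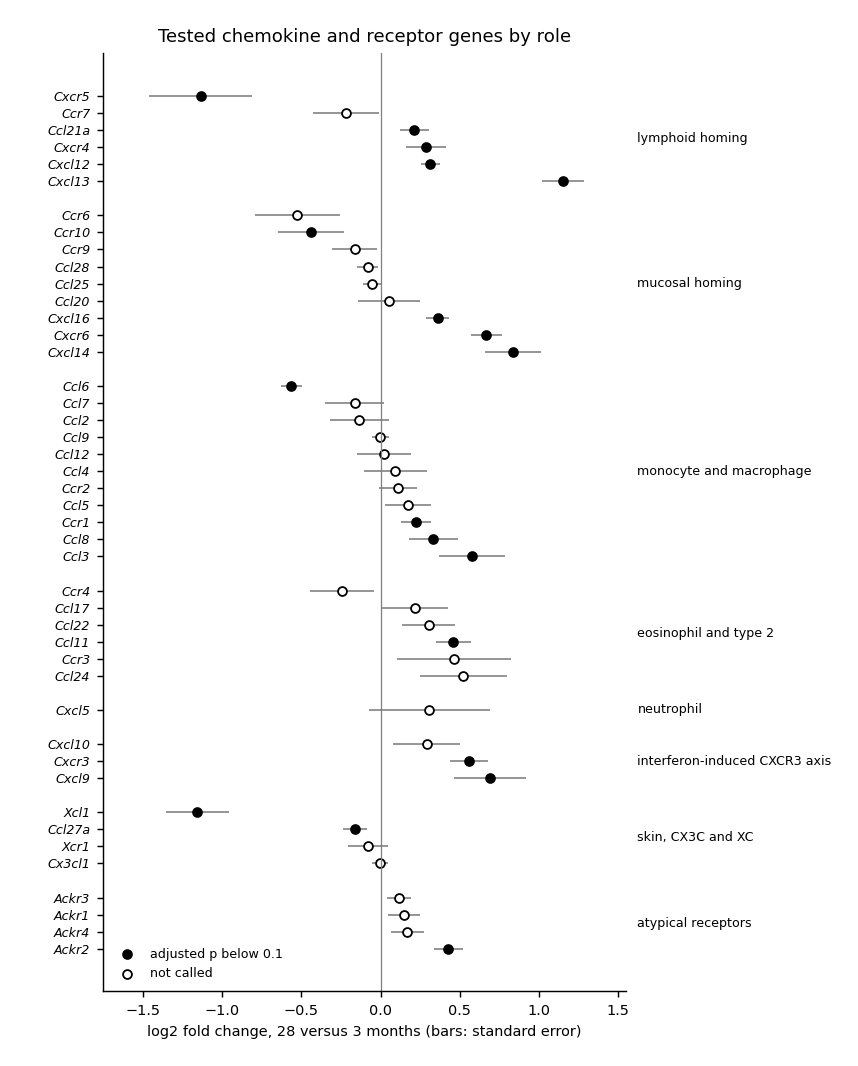
Log2 fold change from 3 to 28 months for the tested genes reported here (horizontal axis), grouped by role, with bars of 1 standard error and filled points where the adjusted p was below 0.1. Filled points reach from -1.15 for Xcl1 to 1.15 for Cxcl13, and 14 of the 19 lie to the right of 0.

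Levels differed widely between genes. Per length, in TPM (counts divided by transcript length and scaled to the same library total) as the mean over the 83 mice, Ccl6 stood first at 635 ± 121 (SD), and the next were Ccl8 at 108 ± 33.4, a monocyte attractant, and Ccl28 at 73.8 ± 10.6, an epithelial chemokine. A group between 20 and 45 TPM held Cxcl14 40.6, Ccl11 40.4, Ccl9 39.95, Cxcl12 39.9, Cx3cl1 37.2, Ccl5 36.7, Cxcl13 35.5, Cxcl16 24.3 and Ccl21a 20.9. Between 5 and 13 TPM were Ackr3 12, Ccl12 11.2, Ccr1 10.3, Ccl7 9.54, Cxcl9 7.84, Ackr1 7.57, Cxcr4 7.39, Cxcr6 6.56, Cxcl10 6.27, Ccr2 5.78, Ccl2 5.5 and Ackr4 5.04. Between 1 and 5 TPM were Ccl25 4.47, Cxcr3 3.74, Ccl27a 3.56, Xcl1 3.46, Ccl4 2.76, Ccr10 2.66, Ccl20 2.33, Ccl22 1.86, Ccl3 1.76, Ackr2 1.75, Ccr7 1.75, Cxcr5 1.52, Ccl17 1.49, Ccr6 1.31, Xcr1 1.1 and Ccl24 1.04, and the remaining tested genes were Ccr4 0.611, Ccr3 0.466, Cxcl5 0.367 and Ccr9 0.298.

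Another 18 genes were too low to test. Neutrophil attractants other than Cxcl5 were among them, with a mean of 0.217 TPM for Cxcl1, 0.181 for Cxcl2, 0.0133 for Cxcl3 and 0.00198 for Cxcl15. So were their receptors Cxcr1 at 0.0118 and Cxcr2 at 0.0528 TPM. Ccr8 stood at 0.347, Ccr1l1 at 0.125, Cxcl17 at 0.0699, Ccl1 at 0.018 and Ccl26 at 0.0109 TPM. Ccl19, a ligand of Ccr7, had 24 counts in all mice together and a mean of 0.0284 TPM. The mouse genome carries near-identical copies of Ccl19, Ccl21 and Ccl27 on chromosome 4 and on unplaced sequence, and only uniquely mapped reads were counted, so reads from the copies could be lost and these levels are uncertain. This holds for Ccl27 at 0.025 TPM, Ccl27b at 0.031 TPM, 3 Ccl21b genes at no more than 0.0355 TPM, a second Ccl21a gene at 0.0124 TPM, and for the tested Ccl21a and Ccl27a as well. Cxcl11, which is disrupted in this strain, is annotated as a polymorphic pseudogene and was left out by the rule.

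Ccl6, the most abundant chemokine mRNA and a macrophage-attracting CC chemokine found in mice, fell with age, whereas its neighbour Ccl9 did not pass the test between the ends of life. Ccl6 (chr11:83587882-83593087, minus strand, GRCm38) and Ccl9 (chr11:83572919-83578636, minus strand), a related attractant of the receptor Ccr1, lie side by side in the CC chemokine cluster. Their promoters are shown as a description, and a link of any motif to the courses was not tested. The windows are from RefSeq (GRCm38.p6) and hold 250 bases before and 50 after the gene start, 5′ to 3′ on the gene's strand, with matches to any of 4 motifs in capitals.
Ccl6 promoter, chr11:83593038-83593337, minus strand: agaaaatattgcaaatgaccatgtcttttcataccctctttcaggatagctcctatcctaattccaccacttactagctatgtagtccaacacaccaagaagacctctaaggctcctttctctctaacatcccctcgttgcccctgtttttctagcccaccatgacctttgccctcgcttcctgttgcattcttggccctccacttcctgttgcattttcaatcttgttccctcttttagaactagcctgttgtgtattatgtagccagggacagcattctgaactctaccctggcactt
Ccl9 promoter, chr11:83578587-83578886, minus strand: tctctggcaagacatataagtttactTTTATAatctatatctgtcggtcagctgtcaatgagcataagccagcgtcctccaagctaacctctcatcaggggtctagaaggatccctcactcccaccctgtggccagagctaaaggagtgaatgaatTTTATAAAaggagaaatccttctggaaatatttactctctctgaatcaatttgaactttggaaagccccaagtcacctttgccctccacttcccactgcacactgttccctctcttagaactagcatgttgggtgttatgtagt
The motifs, searched on both strands, were TATAAA for a TATA box, TTCNNNGAA for a gamma-interferon activation site, GAAANNGAA for the core of an interferon-stimulated response element and GGANTTTCC for an NF-kappaB site. A match is a description of letters and not a shown binding site. Of 60 symbols 45 matched a RefSeq promoter, with 52 windows. TATAAA was found in 15 of the 52 (28.8%) and in 13.6% of 32817 promoters. The Ccl9 window held TATAAA at 3 places, 2 of them on the opposite strand, and the Ccl6 window held none of the 4 motifs.

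For Ccl6 the lowest, median and highest mouse stood at 384, 459 and 512 CPM at 3 months, 319.6, 401 and 663 at 9, 283, 385 and 494 at 15, 276, 318 and 371 at 24, and 247, 299 and 415 at 28 months. The levels of the ages overlapped up to 15 months, but all 17 mice at 24 months and 16 of 18 at 28 months lay below the lowest mouse at 3 months. Ccl6 fell by 0.56 on the log2 scale (SE 0.06, adjusted p = 1.41e-11) from 3 to 28 months, a 1.48-fold lower level, and fell by 0.27 on the log2 scale (SE 0.06, adjusted p = 0.00511) from 15 to 24 months. The fall was of like direction within each of the 3 library batches, at -0.46, -0.47 and -0.72. Ccl9 levels, as lowest, median and highest mouse, were 31.1, 37 and 42.9 CPM at 3 months, 35.3, 40.5 and 54.6 at 9, 35.3, 42 and 50.9 at 15, 34.4, 40.9 and 51.8 at 24, and 30.9, 37.4 and 47.2 at 28 months. Its 28-month mice were spread evenly around the 3-month median, 9 of 18 above it. Ccl9 deviated from a linear course (adjusted p = 0.0146), with higher medians at 9, 15 and 24 months than at either end, and the difference from 3 to 28 months was -0.00064 (SE 0.05, adjusted p = 0.993).

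In the monocyte and macrophage group 3 of 12 tested genes were higher and 1, Ccl6, was lower from 3 to 28 months. The shares of all tested genes were 23.5% and 25.9%. Ccl8 had a lowest, median and highest level of 7.37, 13.4 and 23.6 CPM at 3 months, 13, 18.7 and 44 at 9, 15.5, 20.2 and 35.3 at 15, 11.1, 18.2 and 28.4 at 24, and 8.07, 18.1 and 31.6 at 28 months. Nearly all mice at 9 and 15 months, 15 and 16 of 16, lay above the 3-month median. Ccl8, a monocyte attractant made by resident macrophages, rose by 0.48 on the log2 scale (SE 0.16, adjusted p = 0.0566) from 3 to 9 months and rose by 0.33 on the log2 scale (SE 0.15, adjusted p = 0.0699) from 3 to 28 months, and it deviated from a linear course (adjusted p = 0.0394). Without the 10 mice that stood apart the values were 0.40 (adjusted p = 0.249) and 0.20 (adjusted p = 0.345), and in batch 1 alone the second was -0.02. The early step was 0.48 (adjusted p = 0.105) with only the 2 ages fitted. The change from 3 to 28 months was 0.34 (adjusted p = 0.103) with no filter on low counts, 0.26 (adjusted p = 0.169) with the epithelium and smooth muscle scores as covariates, 0.34 (adjusted p = 0.109) with only the 2 ages fitted and 0.61 in batch 3 alone. From 15 to 24 months Ccl8 gave -0.23 (SE 0.15, adjusted p = 0.374). That step passed the test with the T cell, B cell and macrophage scores as covariates, at -0.53 (adjusted p = 0.000125). The early call was lost without replicates 10, 15 or 16 at 3 months or replicate 10 at 9 months, with values of 0.36 to 0.45 (adjusted p up to 0.142). The call from 3 to 28 months was lost without replicates 10, 12, 15 or 16 at 3 months or replicates 1, 3 or 5 at 28 months, with values of 0.26 to 0.31 (adjusted p up to 0.155). For Ccr1 the lowest, median and highest mouse stood at 6.82, 8.42 and 13.7 CPM at 3 months, 7.42, 8.57 and 10.4 at 9, 7.79, 9.53 and 11.4 at 15, 8.0, 11.2 and 13.3 at 24, and 5.16, 10.5 and 16.3 at 28 months. The ranges overlapped throughout. Ccr1, the receptor on monocytes and neutrophils for several CC chemokines, rose by 0.22 on the log2 scale (SE 0.09, adjusted p = 0.0428) from 3 to 28 months, with 13 of 18 mice above the 3-month median. Without replicate 6 at 28 months the value was 0.18 (adjusted p = 0.101). It was 0.19 (adjusted p = 0.132) without the 10 mice that stood apart. The value was 0.23 (adjusted p = 0.123) with only the 2 ages fitted, 0.00097 in batch 1 alone and 0.53 in batch 2 alone. Ccl3, an inflammatory CC chemokine, rose by 0.58 on the log2 scale (SE 0.21, adjusted p = 0.0195) over the same interval. That rise was 0.31 (adjusted p = 0.295) with the T cell, B cell and macrophage scores as covariates, 0.93 in batch 1 alone and 0.27 in batch 3 alone.

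Other tested genes of this group did not pass the test from 3 to 28 months. The monocyte attractants Ccl2 and Ccl7 gave -0.13 (SE 0.19, adjusted p = 0.582) and -0.16 (SE 0.19, adjusted p = 0.502), and their receptor Ccr2 gave 0.11 (SE 0.12, adjusted p = 0.484). With the T cell, B cell and macrophage scores as covariates the 3 passed the test as lower, at -0.64 (adjusted p = 0.00212), -0.68 (adjusted p = 0.00129) and -0.21 (adjusted p = 0.0892). For Ccl4 and Ccl5, inflammatory CC chemokines, the values were 0.09 (SE 0.20, adjusted p = 0.729) and 0.17 (SE 0.15, adjusted p = 0.353), with 0.02 (SE 0.17, adjusted p = 0.926) for Ccl12. Macrophage markers were higher at 28 than at 3 months in 6 of 7 genes, with a summed level of 137 to 210.1 CPM at 3 months and 133 to 315 CPM at 28 months. With T cell, B cell and macrophage scores as covariates the change was -0.52 for Ccl6 (adjusted p = 2.97e-08), -0.14 for Ccl8 (adjusted p = 0.3) and -0.03 for Ccr1 (adjusted p = 0.797). In bulk tissue fewer cells of a type and less RNA per cell cannot be told apart.

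Among the 6 tested lymphoid homing genes 4 were higher and 1 was lower from 3 to 28 months, against 23.5% and 25.9% of all genes. Cxcl13 and its receptor Cxcr5 moved in opposite directions. Cxcl13 is made by follicular stromal cells and draws B cells, which carry Cxcr5, into lymphoid follicles. The Cxcl13 promoter is shown with its TATA match, 46 bases before the RefSeq start, which differs from the annotated start given below.
Cxcl13 promoter, chr5:95956689-95956988, plus strand: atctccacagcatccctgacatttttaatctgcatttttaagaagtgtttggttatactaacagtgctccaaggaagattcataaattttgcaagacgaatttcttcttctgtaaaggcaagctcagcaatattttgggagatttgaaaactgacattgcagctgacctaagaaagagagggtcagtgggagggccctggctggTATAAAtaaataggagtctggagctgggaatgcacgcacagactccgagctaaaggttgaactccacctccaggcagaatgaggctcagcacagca
Cxcl13 levels, as lowest, median and highest mouse, were 5.02, 7.25 and 14.1 CPM at 3 months, 7.7, 11.1 and 17.6 at 9, 10.1, 13.2 and 18.7 at 15, 9.77, 15.9 and 20.7 at 24, and 9.8, 16.8 and 36.3 at 28 months. Every mouse from 9 months on lay above the 3-month median, and 13 of 18 mice at 28 months lay above the highest mouse at 3 months. Cxcl13 (chr5:95956951-95961068, plus strand) rose by 1.15 on the log2 scale (SE 0.13, adjusted p = 2.96e-11) from 3 to 28 months, 2.22-fold, which was the largest rise among the 45 genes. It rose by 0.51 on the log2 scale (SE 0.13, adjusted p = 0.0154) from 3 to 9 months, and the value without the 10 mice that stood apart was 0.41 (adjusted p = 0.154). Cxcr5 had a lowest, median and highest level of 0.369, 1.91 and 5.98 CPM at 3 months, 0.515, 1.02 and 4.75 at 9, 0.313, 1.25 and 3.87 at 15, 0.624, 1.53 and 4.54 at 24, and 0.453, 1.13 and 2.13 at 28 months. The spread at 3 months covered the levels of all later mice except 1 at 15 months, and 16 of 18 mice at 28 months lay below the 3-month median. Cxcr5 fell by 1.13 on the log2 scale (SE 0.33, adjusted p = 0.00332) from 3 to 28 months, 2.19-fold lower.

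B cell markers moved with Cxcr5. They were lower at 28 than at 3 months in 6 of 7 genes and lower at 28 than at 24 months in 7 of 7. The shares of all tested genes were 25.9% and 6.01%. The markers summed to 8.39 to 97.3 CPM at 3 months and 6.94 to 32 CPM at 28 months. Cxcr5 itself did not pass the test from 24 to 28 months, at -0.73 (SE 0.32, adjusted p = 0.157). Across the 83 mice log2 Cxcr5 followed the B cell score with Pearson's r = 0.92 and Spearman's rho = 0.89 (permutation p = 1e-05 for both, the smallest that 100000 resamples can give, adjusted over 6 relations 1.5e-05). The values were 0.88 to 0.94 within batches, 0.75 to 0.99 within ages, and 0.90 without the 2 mice farthest from the median score. With the immune scores as covariates the change of Cxcr5 from 3 to 28 months turned to 0.31 (adjusted p = 0.102), and that of Cxcl13 was 1.42 (adjusted p = 9.80e-14).

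The relation of Cxcl13 itself to the B cell score did not pass the test over all mice, with r = 0.08 and rho = 0.14 (permutation p = 0.475 and 0.206, adjusted 0.57 and 0.247) and r = 0.07 without the 2 farthest mice. After age and batch were removed from both, r was 0.47 (permutation p = 2.00e-05, adjusted p = 2.40e-05). Within single ages r ran from -0.05 to 0.77, and within batches from 0.01 to 0.26. Ccl19, at 0 counts in 60 of 83 mice, gave r = -0.04 and rho = -0.07 (permutation p = 0.749 and 0.549), from which nothing is read at this depth.

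**Figure D2:**
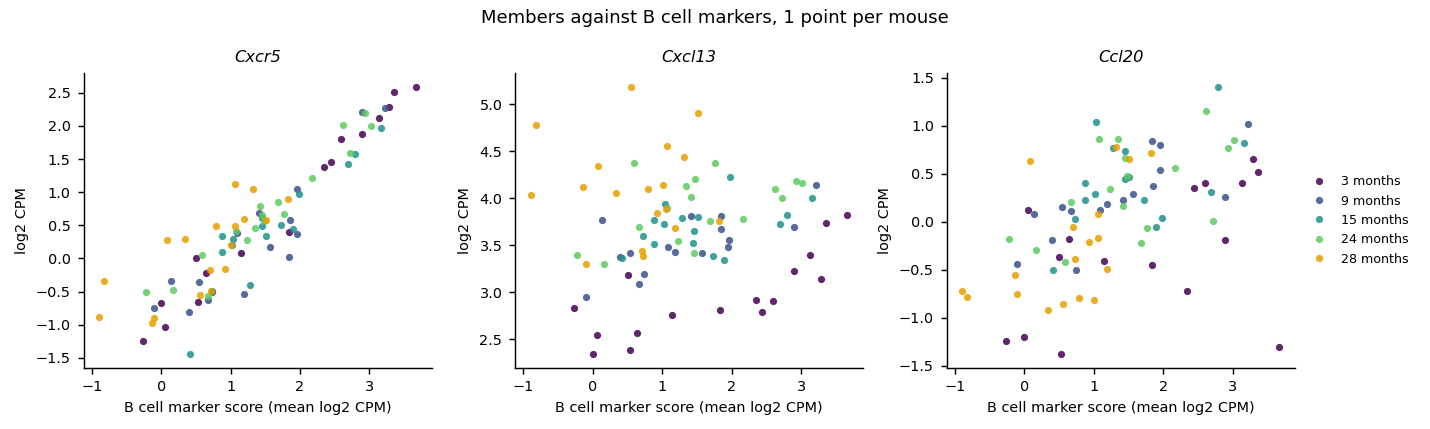
Log2 CPM of Cxcr5, Cxcl13 and Ccl20 (vertical axes) against the B cell marker score, the mean log2 CPM of 7 genes (horizontal axes), with 1 point per mouse coloured by age. Cxcr5 follows the score with r = 0.92, Ccl20 with r = 0.50, and Cxcl13 gives r = 0.08 over all mice.

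For Cxcl12 the lowest, median and highest mouse stood at 64.3, 96.5 and 113 CPM at 3 months, 90.2, 105 and 126 at 9, 92.3, 101 and 117 at 15, 97.1, 121 and 137 at 24, and 84.6, 119 and 139 at 28 months. At 24 months 13 of 17 mice were above the highest at 3 months. Cxcl12, the stromal ligand of Cxcr4 that retains leukocytes and progenitors in tissue, rose by 0.31 on the log2 scale (SE 0.06, adjusted p = 1.41e-05) from 3 to 28 months. It rose by 0.19 on the log2 scale (SE 0.06, adjusted p = 0.0511) from 3 to 9 months and rose by 0.20 on the log2 scale (SE 0.06, adjusted p = 0.025) from 15 to 24 months. Without the 10 mice that stood apart the early step was 0.13 (adjusted p = 0.331), and the later step was 0.20 (adjusted p = 0.026). Without replicate 16 at 3 months the early step was 0.17 (adjusted p = 0.117). That step was 0.20 (adjusted p = 0.105) with only the 2 ages fitted. The later step was 0.10 (adjusted p = 0.182) with the T cell, B cell and macrophage scores as covariates. The change from 3 to 28 months was 0.18 (adjusted p = 0.00503) with the T cell, B cell and macrophage scores as covariates and 0.16 in batch 1 alone. Blood endothelial markers were higher in 4 of 5 genes from 15 to 24 months and fibroblast markers in 1 of 4, against 6.28% of all genes. Their part in the rise was not tested. Cxcr4 levels, as lowest, median and highest mouse, were 2.3, 3.36 and 7.68 CPM at 3 months, 2.73, 3.85 and 5.59 at 9, 3.14, 3.74 and 6.39 at 15, 2.31, 4.38 and 7.54 at 24, and 3.48, 4.97 and 7.19 at 28 months. All 18 mice at 28 months lay above the 3-month median, within the range of the 3-month mice. Cxcr4 rose by 0.29 on the log2 scale (SE 0.13, adjusted p = 0.0607) from 3 to 28 months, but with epithelium and smooth muscle scores as covariates the value was 0.17 (adjusted p = 0.27). The call was lost without replicates 4, 7, 11 or 16 at 3 months or replicate 6 at 28 months, with values of 0.24 to 0.26 (adjusted p up to 0.121). The value was 0.46 (adjusted p = 0.000177) with the T cell, B cell and macrophage scores as covariates, 0.31 (adjusted p = 0.105) with only the 2 ages fitted, 0.46 in batch 1 alone, 0.14 in batch 2 alone and 0.22 (adjusted p = 0.182) without the 10 mice that stood apart.

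Ccl21a had a lowest, median and highest level of 4.28, 5.65 and 7.01 CPM at 3 months, 3.49, 5.32 and 6.75 at 9, 4.82, 5.77 and 6.99 at 15, 4.6, 6.58 and 9.38 at 24, and 3.43, 6.1 and 9.56 at 28 months. Ranges overlapped at all ages. Ccl21a, made by lymphatic endothelium as a ligand of Ccr7, rose by 0.21 on the log2 scale (SE 0.09, adjusted p = 0.0524) from 3 to 28 months, beside lymphatic endothelial markers that were higher in 3 of 4 genes and summed to 56 to 68.9 CPM at 3 months and 65.4 to 96.3 CPM at 28 months. The part of those cells in the rise was not tested. Without replicate 6 at 28 months the value was 0.18 (adjusted p = 0.109). The value was 0.06 (adjusted p = 0.591) with the T cell, B cell and macrophage scores as covariates, 0.17 (adjusted p = 0.149) with the epithelium and smooth muscle scores as covariates, 0.14 in batch 1 alone, 0.34 in batch 3 alone and 0.16 (adjusted p = 0.209) without the 10 mice that stood apart. For Ccr7 the lowest, median and highest mouse stood at 0.478, 1.2 and 3.4 CPM at 3 months, 0.27, 0.888 and 2.17 at 9, 0.371, 0.933 and 1.48 at 15, 0.415, 1.08 and 1.86 at 24, and 0.523, 1.26 and 2.0 at 28 months. The ranges overlapped. Ccr7, carried by naive T cells and migrating dendritic cells, fell by 0.60 on the log2 scale (SE 0.22, adjusted p = 0.0969) from 3 to 9 months, when 13 of 16 mice lay below the 3-month median. The call was lost without replicates 1, 2, 6, 8, 10, 13, 14 or 15 at 3 months or replicates 2, 3, 5, 6, 7, 8, 9, 10, 11, 12, 13, 15 or 16 at 9 months, with values of -0.47 to -0.64 (adjusted p up to 0.214). The value was -0.59 (adjusted p = 0.101) with DESeq2 size factors, -0.59 (adjusted p = 0.179) with no filter on low counts, -0.59 (adjusted p = 0.102) with at least 10 counts in every mouse, -0.57 (adjusted p = 0.13) with no batch term, -0.27 (adjusted p = 0.216) with the T cell, B cell and macrophage scores as covariates and -0.59 (adjusted p = 0.262) with only the 2 ages fitted. Without the 10 mice that stood apart it was -0.80 (adjusted p = 0.0651). From 3 to 28 months the difference was -0.22 (SE 0.21, adjusted p = 0.416). With the sign turned, it passed the test with the T cell, B cell and macrophage scores as covariates, at 0.32 (adjusted p = 0.0942). Ccr7 followed the T cell score over the 83 mice with r = 0.69 and rho = 0.72 (permutation p = 1e-05 for both, adjusted 1.5e-05), with r of 0.64 to 0.74 within batches, 0.66 to 0.84 within ages and 0.72 without the 2 farthest mice.

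**Figure D3:**
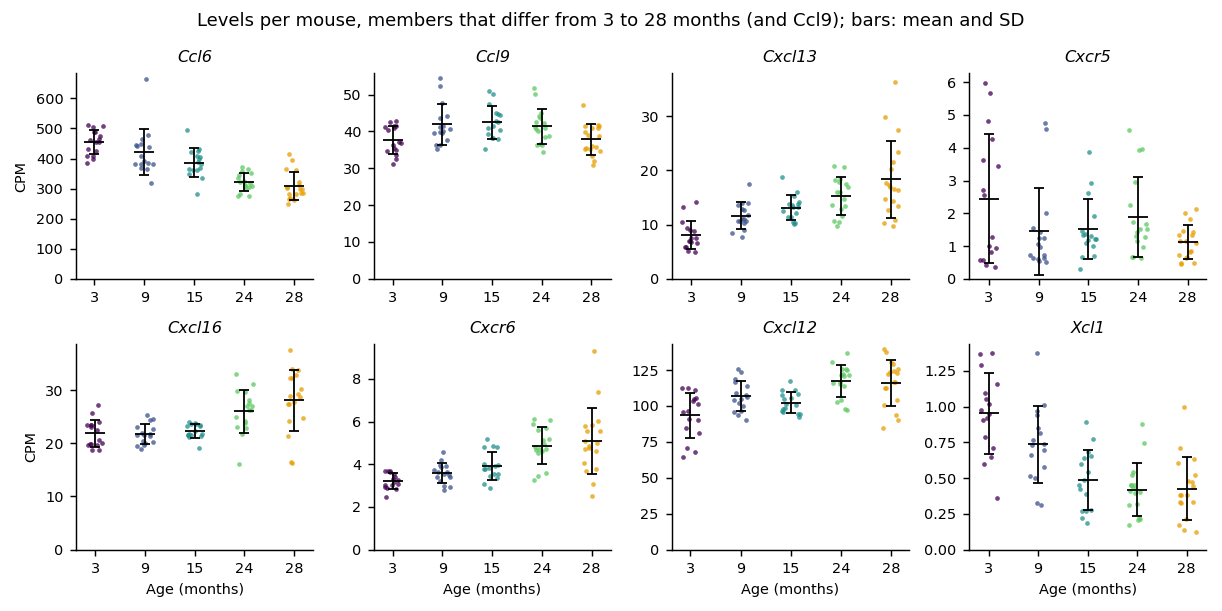
CPM per mouse (vertical axes) at each age in months (horizontal axes) for Ccl6, Ccl9, Cxcl13, Cxcr5, Cxcl16, Cxcr6, Cxcl12 and Xcl1, with 1 point per mouse and bars for the mean and SD. Ccl6 and Xcl1 descend, Cxcl13, Cxcl16, Cxcr6 and Cxcl12 climb, and Cxcr5 spreads from 0.369 to 5.98 CPM at 3 months but only from 0.453 to 2.13 at 28 months.

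Of the 9 tested mucosal genes 3 were higher and 1 was lower from 3 to 28 months, against 23.5% and 25.9% of all genes. Cxcl16 and its receptor Cxcr6 both rose from 15 to 24 and from 3 to 28 months. Cxcl16 is a membrane-bound ligand on epithelial and myeloid cells, and Cxcr6 marks tissue-resident T cells and innate lymphocytes. Cxcl16 levels, as lowest, median and highest mouse, were 18.7, 21.7 and 27.2 CPM at 3 months, 19, 21.6 and 25.4 at 9, 19.1, 22.1 and 24.1 at 15, 16, 26.3 and 33.1 at 24, and 16.3, 28.8 and 37.6 at 28 months. At 9 and 15 months no mouse exceeded the highest at 3 months, whereas 13 of 18 did at 28 months. Cxcl16 rose by 0.22 on the log2 scale (SE 0.07, adjusted p = 0.0405) from 15 to 24 months and rose by 0.36 on the log2 scale (SE 0.07, adjusted p = 2.78e-05) from 3 to 28 months. Cxcr6 had a lowest, median and highest level of 2.46, 3.21 and 3.7 CPM at 3 months, 2.79, 3.58 and 4.59 at 9, 2.88, 3.79 and 5.17 at 15, 3.24, 4.79 and 6.1 at 24, and 2.51, 4.93 and 9.29 at 28 months. At 24 months 14 of 17 mice and at 28 months 15 of 18 exceeded the highest mouse at 3 months. Cxcr6 rose by 0.31 on the log2 scale (SE 0.10, adjusted p = 0.0383) from 15 to 24 months and rose by 0.67 on the log2 scale (SE 0.10, adjusted p = 5.89e-08) from 3 to 28 months, 1.59-fold. T cell markers were higher at 28 than at 3 months in 1 of 5 genes, and CD8 and intraepithelial lymphocyte markers in 4 of 5, with a summed level of 18.6 to 55.6 CPM at 3 months and 28.1 to 94.7 CPM at 28 months. With the immune scores as covariates the late step of Cxcl16 was 0.09 (adjusted p = 0.277), and that of Cxcr6 was 0.18 (adjusted p = 0.0427). The rise of Cxcl16 from 3 to 28 months was 0.18 (adjusted p = 0.00786) with the T cell, B cell and macrophage scores as covariates. Cxcr6 gave 0.16 (SE 0.10, adjusted p = 0.415) from 3 to 9 months and 0.13 (SE 0.10, adjusted p = 0.752) from 9 to 15 months, and its course did not deviate detectably from a linear one (adjusted p = 0.959). The step of Cxcr6 from 3 to 9 months passed the test with the T cell, B cell and macrophage scores as covariates, at 0.20 (adjusted p = 0.0257).

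Cxcl14, an epithelial and stromal chemokine, had its highest median at 24 months. For Cxcl14 the lowest, median and highest mouse stood at 9.34, 15.5 and 21 CPM at 3 months, 12.6, 20.02 and 35.9 at 9, 16.1, 23.8 and 69.9 at 15, 13.2, 29.7 and 86 at 24, and 13.9, 25.8 and 46.3 at 28 months. At 24 months 16 of 17 mice lay above the 3-month median. Cxcl14 rose by 0.55 on the log2 scale (SE 0.18, adjusted p = 0.0592) from 3 to 9 months, where the value without the 10 mice that stood apart was 0.49 (adjusted p = 0.229). The early call was lost without replicates 13 or 15 at 3 months or replicate 1 at 9 months, with values of 0.48 to 0.53 (adjusted p up to 0.119). It rose by 0.83 on the log2 scale (SE 0.18, adjusted p = 8.14e-05) from 3 to 28 months and deviated from a linear course (adjusted p = 0.0479).

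Ccl28 and Ccl20, chemokines of the colon epithelium, and the receptor Ccr10 had their highest means at 15 months and fell from 24 to 28 months. Ccl28 draws IgA plasma cells, which carry Ccr10, and Ccl20 draws Ccr6-bearing B cells, dendritic cells and T cells. Ccl28 levels, as lowest, median and highest mouse, were 98, 115 and 128 CPM at 3 months, 94.5, 117 and 169.6 at 9, 104, 132 and 167 at 15, 96.9, 117 and 161 at 24, and 77.2, 106 and 129 at 28 months. At 15 months 8 of 16 mice exceeded the highest mouse at 3 months, and at 28 months 1 of 18 did. Ccl28 fell by 0.18 on the log2 scale (SE 0.06, adjusted p = 0.0582) from 24 to 28 months, with 13 of 18 mice below the 3-month median, and deviated from a linear course (adjusted p = 0.00186). The call of the late fall was lost without replicate 4 at 24 months or replicates 7 or 12 at 28 months, with values of -0.15 to -0.16 (adjusted p up to 0.139). The value was -0.18 (adjusted p = 0.109) with no filter on low counts, -0.15 (adjusted p = 0.152) with the T cell, B cell and macrophage scores as covariates and -0.15 (adjusted p = 0.136) without the 10 mice that stood apart. Ccr10 had a lowest, median and highest level of 0.835, 1.36 and 2.57 CPM at 3 months, 0.757, 1.59 and 2.9 at 9, 1.11, 1.52 and 4.24 at 15, 0.508, 1.48 and 3.39 at 24, and 0.416, 0.96 and 1.96 at 28 months. Its ranges overlapped at all ages. Ccr10 fell by 0.56 on the log2 scale (SE 0.20, adjusted p = 0.072) from 24 to 28 months and fell by 0.44 on the log2 scale (SE 0.21, adjusted p = 0.0782) from 3 to 28 months, with a deviation from a linear course at adjusted p = 0.0444. The call was lost without replicates 3, 4, 7, 11, 12 or 14 at 24 months or replicates 1, 2, 5, 7, 11, 13 or 17 at 28 months, with values of -0.48 to -0.53 (adjusted p up to 0.149). The late step was -0.56 (adjusted p = 0.133) with no filter on low counts, -0.31 (adjusted p = 0.323) with the T cell, B cell and macrophage scores as covariates and -0.54 (adjusted p = 0.135) with only the 2 ages fitted. The call from 3 to 28 months was lost without replicates 5, 6, 8 or 14 at 3 months or replicates 1, 2, 3, 5, 7, 11, 13 or 17 at 28 months, with values of -0.36 to -0.42 (adjusted p up to 0.154). That change was -0.43 (adjusted p = 0.133) with no filter on low counts. Plasma cell markers were lower in 3 of 5 genes from 24 to 28 months, against 6.01% of all tested genes. Their summed level was 676 to 2162 CPM at 24 months and 559 to 1642 CPM at 28 months. Their part in the fall of Ccr10 was not tested.

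For Ccl20 the lowest, median and highest mouse stood at 0.33, 0.771 and 1.52 CPM at 3 months, 0.651, 1.1 and 1.97 at 9, 0.651, 1.23 and 2.6 at 15, 0.693, 1.22 and 2.18 at 24, and 0.474, 0.685 and 1.66 at 28 months. At 28 months 8 of 18 mice lay above the 3-month median, against 15 of 16 at 15 months. Ccl20 fell by 0.56 on the log2 scale (SE 0.19, adjusted p = 0.0527) from 24 to 28 months and deviated from a linear course (adjusted p = 0.00479), while the ends of life differed by 0.05 (SE 0.20, adjusted p = 0.851). The difference between the ends of life passed the test with the T cell, B cell and macrophage scores as covariates, at 0.43 (adjusted p = 0.0791). From 3 to 9 months Ccl20 gave 0.51 (SE 0.20, adjusted p = 0.118). That step passed the test with the T cell, B cell and macrophage scores as covariates, at 0.67 (adjusted p = 0.0101) and in DESeq2, at 0.52 (adjusted p = 0.094). Without replicate 3 at 24 months the late step was -0.51 (adjusted p = 0.101). Over the 83 mice it followed the B cell score with r = 0.50 and rho = 0.56 (permutation p = 1e-05 for both, adjusted 1.5e-05), with r of 0.20 to 0.77 within batches, 0.46 to 0.78 within ages and 0.60 without the 2 farthest mice. With the immune scores as covariates its late step was -0.30 (adjusted p = 0.311). Its receptor Ccr6 gave -0.55 (SE 0.26, adjusted p = 0.204) in that step and -0.53 (SE 0.27, adjusted p = 0.107) from 3 to 28 months. The latter passed the test as higher with the T cell, B cell and macrophage scores as covariates, at 0.56 (adjusted p = 0.00478), and as lower with the epithelium and smooth muscle scores as covariates, at -0.67 (adjusted p = 0.0394), in DESeq2, at -0.52 (adjusted p = 0.0953) and without the 10 mice that stood apart, at -0.58 (adjusted p = 0.0894). Ccl25, the ligand of the gut-homing receptor Ccr9, gave -0.05 (SE 0.06, adjusted p = 0.503) from 3 to 28 months, and Ccr9 gave -0.16 (SE 0.14, adjusted p = 0.366).

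In the interferon-induced axis the receptor Cxcr3, carried by effector T cells, rose with age, and the call of its ligand Cxcl9 was lost without 1 mouse. Cxcl9 and Cxcl10, neighbours on chromosome 5, are induced by interferon-gamma, and their promoters are shown with the interferon and NF-kappaB matches.
Cxcl9 promoter, chr5:92328030-92328329, minus strand: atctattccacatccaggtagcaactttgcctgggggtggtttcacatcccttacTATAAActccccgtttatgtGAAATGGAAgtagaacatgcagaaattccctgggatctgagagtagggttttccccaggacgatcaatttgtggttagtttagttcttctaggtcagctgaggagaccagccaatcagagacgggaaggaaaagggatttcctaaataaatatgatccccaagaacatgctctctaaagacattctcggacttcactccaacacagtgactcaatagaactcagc
Cxcl10 promoter, chr5:92348840-92349139, minus strand: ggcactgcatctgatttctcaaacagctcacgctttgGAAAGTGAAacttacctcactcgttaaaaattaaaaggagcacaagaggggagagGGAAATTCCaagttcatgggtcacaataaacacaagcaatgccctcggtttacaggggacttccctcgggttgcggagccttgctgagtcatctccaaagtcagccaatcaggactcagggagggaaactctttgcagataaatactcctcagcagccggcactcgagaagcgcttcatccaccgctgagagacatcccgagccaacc
Both windows held the GAAANNGAA core, which was found in 8 of the 52 windows (15.4%) and in 8.55% of all promoters. Of the pair, Cxcl10 held GGANTTTCC, found in 5 of 52 (9.62%) against 1.26% of all, and Cxcl9 held TATAAA. TTCNNNGAA occurred in 4 of 52 windows (7.69%) and in 8.29% of all promoters.

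Cxcl9 levels, as lowest, median and highest mouse, were 2.7, 6.52 and 11.5 CPM at 3 months, 4.35, 7.39 and 20.3 at 9, 4.14, 5.6 and 12.4 at 15, 4.26, 6.96 and 9.77 at 24, and 4.06, 7.63 and 46 at 28 months. The ages overlapped, and replicate 1 at 28 months stood far above the rest, with the next mouse of that age at 17 CPM. Cxcl9 rose by 0.69 on the log2 scale (SE 0.22, adjusted p = 0.0444) from 24 to 28 months and rose by 0.69 on the log2 scale (SE 0.23, adjusted p = 0.0105) from 3 to 28 months. Without replicate 1 these values were 0.36 (adjusted p = 0.268) and 0.37 (adjusted p = 0.126). The late step was 0.30 (adjusted p = 0.323) with the T cell, B cell and macrophage scores as covariates and 0.65 (adjusted p = 0.111) with only the 2 ages fitted. The change from 3 to 28 months was 0.30 (adjusted p = 0.211) with the T cell, B cell and macrophage scores as covariates. Batches alone gave 0.45, 0.51 and 0.98 from 3 to 28 months. Cxcr3 had a lowest, median and highest level of 1.08, 1.8 and 2.48 CPM at 3 months, 1.24, 1.8 and 2.52 at 9, 1.38, 2.0 and 2.57 at 15, 1.19, 2.52 and 3.31 at 24, and 1.25, 2.43 and 4.13 at 28 months. At 28 months 14 of 18 mice lay above the 3-month median. Cxcr3 rose by 0.56 on the log2 scale (SE 0.12, adjusted p = 0.000123) from 3 to 28 months. The values were 0.50 to 0.62 when each mouse of these 2 ages was left out in turn. Cxcl10 gave 0.29 (SE 0.21, adjusted p = 0.267).

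Of the 6 tested eosinophil and type 2 genes 1 was higher from 3 to 28 months and 0 were lower. The shares of all tested genes were 23.5% and 25.9%. For Ccl11 the lowest, median and highest mouse stood at 7.46, 11.7 and 17.3 CPM at 3 months, 8.49, 12.1 and 25.3 at 9, 10.05, 14.1 and 20.6 at 15, 11.2, 15.6 and 26.3 at 24, and 12.2, 16.5 and 22.5 at 28 months. All 18 mice at 28 months lay above the 3-month median. Ccl11, the eosinophil attractant eotaxin, rose by 0.46 on the log2 scale (SE 0.11, adjusted p = 0.000529) from 3 to 28 months, with 0.45, 0.40 and 0.56 in the 3 batches alone. The rise was 0.25 (adjusted p = 0.0867) with the T cell, B cell and macrophage scores as covariates. Ccl24 levels, as lowest, median and highest mouse, were 0.115, 0.251 and 0.635 CPM at 3 months, 0.159, 0.452 and 1.22 at 9, 0.20, 0.386 and 1.56 at 15, 0.254, 0.504 and 1.18 at 24, and 0.121, 0.371 and 0.856 at 28 months. The oldest ages overlapped with the youngest, and all 17 mice at 24 months lay above the 3-month median. Ccl24, a second eotaxin, rose by 0.79 on the log2 scale (SE 0.28, adjusted p = 0.0786) from 3 to 9 months and deviated from a linear course (adjusted p = 0.0769). Without the 10 mice that stood apart the step was 0.66 (adjusted p = 0.286). The call was lost without replicates 10, 13, 14, 15 or 16 at 3 months or replicates 5, 10 or 13 at 9 months, with values of 0.64 to 0.78 (adjusted p up to 0.159). The early step was 0.79 (adjusted p = 0.135) with no filter on low counts and 0.72 (adjusted p = 0.104) with the epithelium and smooth muscle scores as covariates. From 3 to 28 months Ccl24 gave 0.52 (SE 0.27, adjusted p = 0.119). That change passed the test with the epithelium and smooth muscle scores as covariates, at 0.56 (adjusted p = 0.0979), with only the 2 ages fitted, at 0.56 (adjusted p = 0.0599) and in DESeq2, at 0.55 (adjusted p = 0.0871). In batch 1 alone it was -0.01 and in batch 3 alone 1.15. Ccr3 had a lowest, median and highest level of 0.0823, 0.268 and 0.835 CPM at 3 months, 0.145, 0.388 and 0.763 at 9, 0.169, 0.452 and 2.24 at 15, 0.0304, 0.506 and 1.97 at 24, and 0, 0.395 and 1.08 at 28 months. The highest mice were at 15 and 24 months, and 6 of 16 and 5 of 17 exceeded the highest at 3 months. Ccr3, the eotaxin receptor, deviated from a linear course (adjusted p = 0.0196), and no step between neighbouring ages passed the test in edgeR with the batch term. The step from 24 to 28 months passed the test with no batch term, at -0.83 (adjusted p = 0.0941) and in DESeq2, at -0.87 (adjusted p = 0.0738). Eosinophil markers summed to 3.1 to 5.01 CPM at 3 months, 3.54 to 6.76 CPM at 15 months and 1.66 to 4.38 CPM at 28 months, with 1 of 2 tested genes higher and 1 lower from 3 to 28 months.

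For Ccl22 the lowest, median and highest mouse stood at 0.584, 1.24 and 2.74 CPM at 3 months, 0.577, 1.07 and 1.97 at 9, 0.72, 1.19 and 2.49 at 15, 1.01, 1.79 and 2.66 at 24, and 0.718, 1.41 and 2.67 at 28 months. All but 1 of the 17 mice at 24 months lay above the 15-month median. Ccl22, a dendritic cell product that draws Ccr4-bearing T cells, rose by 0.44 on the log2 scale (SE 0.17, adjusted p = 0.0895) from 15 to 24 months. The call was lost without replicates 3, 4, 6, 8, 9, 10, 11, 12, 13 or 14 at 15 months or replicates 1, 2, 3, 4, 10, 11, 13, 14, 15, 16 or 17 at 24 months, with values of 0.39 to 0.45 (adjusted p up to 0.142). The value was 0.44 (adjusted p = 0.157) with no filter on low counts, 0.42 (adjusted p = 0.118) with no batch term, 0.41 (adjusted p = 0.105) with the epithelium and smooth muscle scores as covariates and 0.44 (adjusted p = 0.118) without the 10 mice that stood apart. From 3 to 28 months Ccl22 gave 0.30 (SE 0.17, adjusted p = 0.139), Ccl17, another ligand of Ccr4, gave 0.22 (SE 0.21, adjusted p = 0.413) and Ccr4 gave -0.24 (SE 0.20, adjusted p = 0.339). The change of Ccl22 from 3 to 28 months passed the test with the T cell, B cell and macrophage scores as covariates, at 0.44 (adjusted p = 0.0175). Cxcl5, the tested neutrophil attractant, gave 0.31 (SE 0.38, adjusted p = 0.54).

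**Figure D4:**
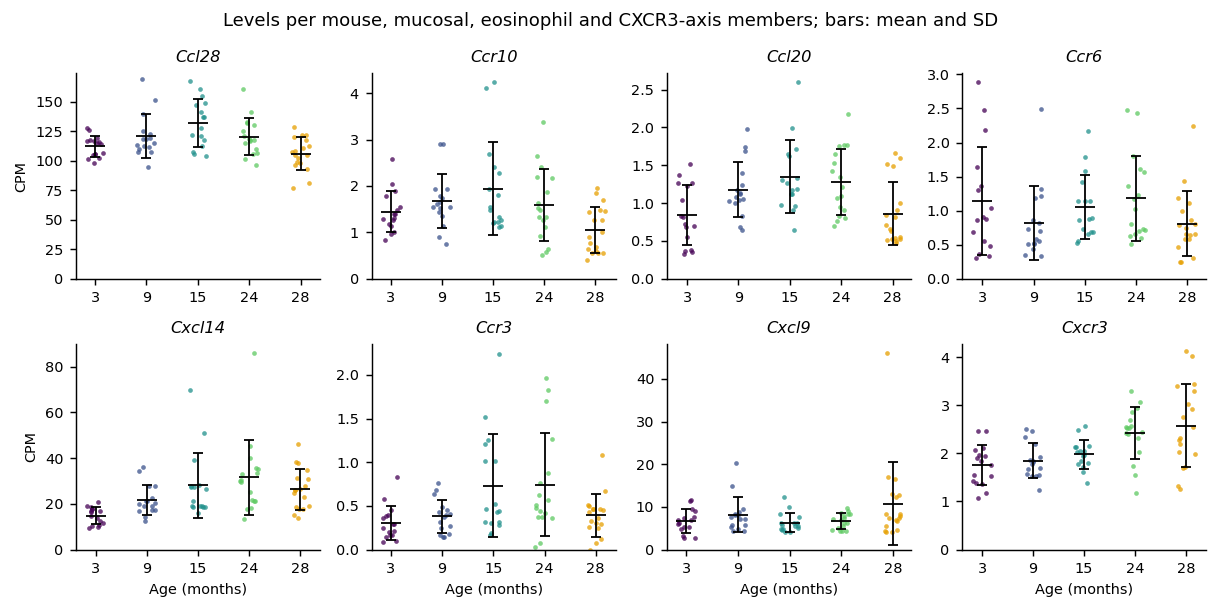
CPM per mouse (vertical axes) at each age in months (horizontal axes) for Ccl28, Ccr10, Ccl20, Ccr6, Cxcl14, Ccr3, Cxcl9 and Cxcr3, with 1 point per mouse and bars for the mean and SD. Ccl28, Ccr10 and Ccl20 have their highest means at 15 months, and 1 mouse at 28 months reaches 46 CPM of Cxcl9.

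Xcl1, the attractant of cross-presenting dendritic cells made by activated CD8 T cells and natural killer cells, had the lowest fold change of the 45 genes, within the errors of that of Cxcr5. Xcl1 levels, as lowest, median and highest mouse, were 0.362, 0.962 and 1.38 CPM at 3 months, 0.312, 0.737 and 1.37 at 9, 0.186, 0.468 and 0.889 at 15, 0.173, 0.406 and 0.882 at 24, and 0.125, 0.382 and 0.999 at 28 months. All 16 mice at 15 months and 17 of 18 mice at 28 months lay below the 3-month median. Xcl1 fell by 1.15 on the log2 scale (SE 0.20, adjusted p = 2.43e-06) from 3 to 28 months, 2.23-fold lower, and no single step between neighbouring ages passed the test. Batches alone gave -0.98, -1.01 and -1.44. Over the same interval CD8 and intraepithelial lymphocyte markers were higher in 4 of 5 genes and natural killer cell markers in 1 of 3. In both lists 0 were lower. Its receptor Xcr1 gave -0.08 (SE 0.13, adjusted p = 0.637). It passed the test with the T cell, B cell and macrophage scores as covariates, at -0.32 (adjusted p = 0.0381). Ccl27a, a chemokine known from skin that shares Ccr10 with Ccl28, fell by 0.16 on the log2 scale (SE 0.08, adjusted p = 0.0832) from 3 to 28 months. The call was lost without replicates 2, 4, 6, 8, 9, 13 or 15 at 3 months or replicates 1, 5, 7, 12, 14, 16 or 18 at 28 months, with values of -0.13 to -0.16 (adjusted p up to 0.176). The value was -0.15 (adjusted p = 0.102) with DESeq2 size factors, -0.16 (adjusted p = 0.168) with no filter on low counts, -0.15 (adjusted p = 0.172) with the T cell, B cell and macrophage scores as covariates, -0.25 (adjusted p = 0.0035) with the epithelium and smooth muscle scores as covariates and -0.15 (adjusted p = 0.103) in DESeq2. Cx3cl1, the membrane-bound ligand fractalkine, gave -0.0025 (SE 0.05, adjusted p = 0.974).

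Among the atypical receptors Ackr2, which clears inflammatory CC chemokines, rose early. Ackr2 had a lowest, median and highest level of 1.12, 1.43 and 2.22 CPM at 3 months, 1.2, 1.76 and 2.48 at 9, 1.15, 1.61 and 2.15 at 15, 1.46, 1.87 and 3.31 at 24, and 1.71, 2.0 and 2.3 at 28 months. At 28 months all 18 mice lay above the 3-month median. Ackr2 rose by 0.32 on the log2 scale (SE 0.09, adjusted p = 0.0343) from 3 to 9 months and rose by 0.43 on the log2 scale (SE 0.09, adjusted p = 9.26e-05) from 3 to 28 months, and without the 10 mice that stood apart the early step was 0.25 (adjusted p = 0.225). For Ackr3 the lowest, median and highest mouse stood at 10.8, 13.1 and 16.4 CPM at 3 months, 9.68, 11.7 and 17 at 9, 8.96, 12.6 and 17 at 15, 11.4, 14.5 and 17.2 at 24, and 9.36, 14.5 and 17 at 28 months. The ages overlapped. Ackr3, a scavenger of Cxcl12, differed over the 5 ages (adjusted p = 0.0253) but gave 0.12 (SE 0.07, adjusted p = 0.197) from 3 to 28 months. Ackr1, which carries chemokines across venules, gave 0.15 (SE 0.10, adjusted p = 0.228), and Ackr4, a scavenger of Ccl19, Ccl21 and Ccl25, gave 0.17 (SE 0.10, adjusted p = 0.184).

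**Figure D5:**
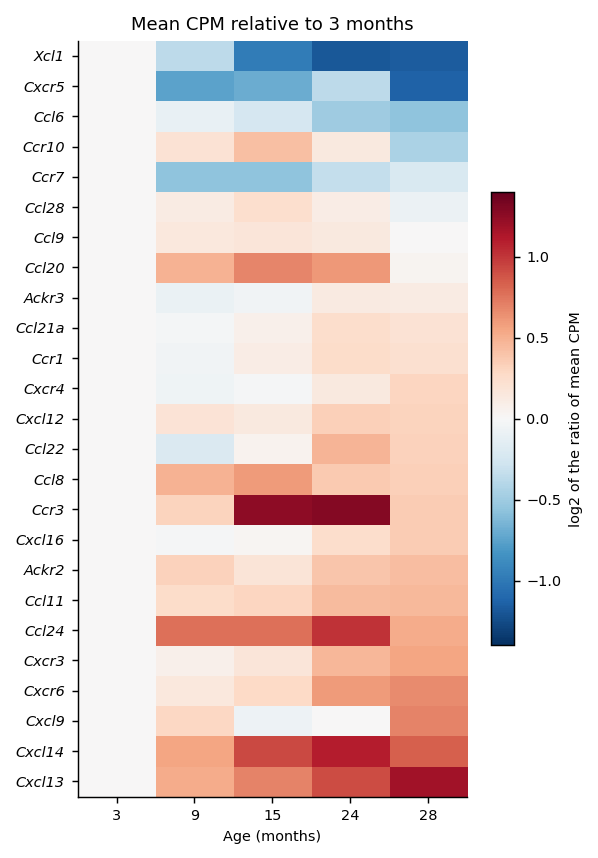
Log2 ratio of the mean CPM at each age to the mean at 3 months (colour) for 25 genes (vertical axis, ordered by the 28-month value) at 5 ages (horizontal axis). Cxcl13 is highest and Xcl1 lowest at 28 months, and Ccr3, Ccl20, Ccr10 and Ccl28 are higher at 15 months than at either end.

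Ccl5, stored by memory and intraepithelial CD8 T cells, did not pass the test of any age. It followed the T cell score over the 83 mice with r = 0.75 and rho = 0.70 (permutation p = 1e-05 for both, adjusted 1.5e-05), with r of 0.49 to 0.89 within batches, 0.66 to 0.82 within ages and 0.71 without the 2 farthest mice. These relations are between levels in the same libraries, and the cells that made each mRNA were not measured.

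Genes around the chemokine system were counted from lists. From 3 to 28 months 23.5% of all tested genes were higher and 25.9% lower. Relatives outside the name rule had 5 of 7 tested genes higher and 1 lower from 3 to 28 months, with a median log2 fold change of 0.42. Rarres2, the attractant chemerin, gave 0.36 (SE 0.05, adjusted p = 1.65e-07), Gpr15, a colon homing receptor of T cells, gave 0.80 (SE 0.17, adjusted p = 8.22e-05), Cx3cr1, the fractalkine receptor of gut macrophages, gave 0.47 (SE 0.10, adjusted p = 0.000111) and Gpr35 gave -0.20 (SE 0.06, adjusted p = 0.00262). A list of receptor signaling genes together with Dpp4 had 3 of 16 tested genes higher and 4 lower from 3 to 28 months, with a median log2 fold change of -0.0078. Dpp4, a protease that trims and inactivates several chemokines, gave -0.28 (SE 0.04, adjusted p = 1.81e-08), Gnb1, a G protein subunit, gave -0.09 (SE 0.03, adjusted p = 0.0115), and Gnai2, the inhibitory alpha subunit used by these receptors, gave 0.08 (SE 0.03, adjusted p = 0.0362). Grk2, a kinase that desensitizes receptors, gave -0.06 (SE 0.02, adjusted p = 0.0369), the migration factor Dock2 gave 0.26 (SE 0.11, adjusted p = 0.0567) and the arrestin Arrb2 gave 0.14 (SE 0.06, adjusted p = 0.0689).

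Inducing cytokines and transcription factors had 2 of 7 tested genes higher and 2 lower from 3 to 28 months, against 23.5% and 25.9% of all genes. Their median log2 fold change was 0.03, and 6 of the 13 were too low to test. Tnf, an inflammatory cytokine, gave 0.43 (SE 0.13, adjusted p = 0.00493), whereas Nfkb1 gave -0.10 (SE 0.04, adjusted p = 0.0137) and Il1b gave -0.47 (SE 0.23, adjusted p = 0.0907). Genes that organize lymphoid follicles had 1 of 9 tested genes higher and 2 lower from 3 to 28 months, with a median log2 fold change of 0.0051. Tnfsf13b, the B cell survival factor BAFF, gave 0.33 (SE 0.07, adjusted p = 0.000208), whereas Ltb, the lymphotoxin subunit on lymphocytes, gave -0.42 (SE 0.16, adjusted p = 0.024) and Nfkb2, a transcription factor downstream of it, gave -0.20 (SE 0.05, adjusted p = 0.000542). Over all 18325 genes 23.5% were higher and 25.9% lower in this interval, and the median was -0.0087.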

How the data were processed

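Bulk RNA of the colon of 83 mice was sequenced as stranded, polyA-selected paired-end libraries. The authors trimmed reads with cutadapt 2.8, aligned them to GRCm38 with HISAT2 2.1.0, handled alignments with SAMtools 1.9 and counted uniquely mapped reads per gene with featureCounts (Subread 2.0.1), and the deposited table holds those raw counts, 1 column per mouse. Reads shared by near-identical genes are therefore lost. Age, replicate and library batch were taken from the labels.

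Genes with enough counts in an age group (filterByExpr, 18325 of 37764) were fitted with edgeR 4.0.16 in R 4.3.3 (TMM scaling, age and library batch as factors, quasi-likelihood F-test, all 83 mice), with Benjamini-Hochberg adjusted p below 0.1. The same fit tested all ages together and the terms of age beyond the linear. edgeR stood in place of the DESeq2 model of the study, and DESeq2 1.42.0 was an alternative, as were other scalings, filters, covariates, a replicate block, single batches, a threshold of 0.05 and leaving out each mouse. Scripts were tested on simulated data. CPM are counts over TMM-scaled totals. TPM used merged exon lengths of the GENCODE vM21 annotation of GRCm38, which held 37652 of the 37764 genes. Scores are means of log2 CPM with a prior count of 2. Correlations were tested with two-sided permutation tests (100000 resamples, scipy 1.17.1) and adjusted over 6 relations. A score over 3 interquartile ranges from the median, or over 10 CPM of pancreatic markers, set a mouse apart.

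Genes are named with their level, except that 1 of the genes chosen and 1 gene of a surrounding list are not reported here. Full values are given for genes with a mean of at least 0.5 CPM that passed the test over all ages, at most 24, and for those called in a step between neighbouring ages. Of each list of surrounding genes at most 3 higher and 3 lower are named. The genes and lists were chosen with earlier results of these data known. In all 649 pairs of the same age the libraries differed by more than sampling noise, so each counts as 1 replicate.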

Additional observations from a re-analysis of the deposited data

How the results depend on the processing

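Of 35 changes called for single genes, 32 kept their direction and 12 their side of the threshold under the alternatives in scaling, tool, filter, batch term, replicate block, covariates and mice fitted. Genes called from 3 to 9 months numbered 2 in place of 7 at an adjusted p below 0.05, 4 with the 2 ages alone and 1 without the 10 mice, an alternative chosen after seeing the data. From 9 to 15 months 1 in place of 0 was called with epithelium and smooth muscle scores as covariates. From 24 to 28 months 1 in place of 4 was called at an adjusted p below 0.05 and 2 with no filter on low counts. Each mouse of the 2 ages compared was also left out in turn. This gave 3 to 9 genes from 3 to 9 months, 0 to 1 from 9 to 15, 4 to 8 from 15 to 24, 2 to 6 from 24 to 28 and 16 to 20 from 3 to 28 months. The cause of these shifts was not tested.

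The sign from 3 to 28 months turned in several genes. With T cell, B cell and macrophage scores as covariates it was -0.14 for Ccl8, -0.0289 for Ccr1, -0.0648 for Ackr3, 0.31 for Cxcr5, 0.32 for Ccr7, 0.56 for Ccr6 and -0.21 for Ccr2. In batch 1 alone it was -0.21 for Ccr3, -0.20 for Ccl20, -0.0219 for Ccl8, -0.0147 for Ccl24 and 0.0101 for Ccr7. Ccl20 was -0.0324 with epithelium and smooth muscle scores. Ccl9, at -0.00064, turned under 11 alternatives to 0.00278, 0.00378, 0.00722, 0.00806, 0.00824, 0.0104, 0.0155, 0.0208, 0.0297, 0.0416 and 7.79e-04. The cause was not tested. After removal of age and batch the relation of Cxcl13 to the B cell score was r = 0.47 and that of Ccl19 r = 0.000928.

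Replicate numbers did not pair the mice: 161 same-numbered pairs had a mean correlation of 0.0021 (-0.31 to 0.29), and 3 of 83 mice correlated best with their own number. With the replicate block 5, 0, 5, 3 and 19 genes were called in the steps from 3 to 9, 9 to 15, 15 to 24, 24 to 28 and 3 to 28 months. The block ended the calls of Cxcl9 from 24 to 28 months (0.51, adjusted p = 0.157), Ccl24 from 3 to 9 months (0.77, adjusted p = 0.101), Ccr7 from 3 to 9 months (-0.57, adjusted p = 0.116) and Ccl27a from 3 to 28 months (-0.15, adjusted p = 0.122), and gave one to Ccl24 from 3 to 28 months (0.63, adjusted p = 0.074). Changes that did not pass the test did so under other alternatives in 10 genes from 3 to 28 months and in 3, 1, 5 and 6 in the 4 steps. They include the following besides those named above. With at least 10 counts in every mouse, Ccl9 from 3 to 9 months (0.16, adjusted p = 0.0994) and Ackr3 from 15 to 24 months (0.18, adjusted p = 0.099) passed. With the T cell, B cell and macrophage scores as covariates, Ccr10 from 15 to 24 months (-0.48, adjusted p = 0.0684), Cxcr4 from 24 to 28 months (0.34, adjusted p = 0.0115), Cxcl13 from 24 to 28 months (0.38, adjusted p = 0.0466) and Ccr7 from 24 to 28 months (0.42, adjusted p = 0.0406) passed. With the epithelium and smooth muscle scores as covariates, Ccl9 from 3 to 9 months (0.16, adjusted p = 0.0944), Cx3cl1 from 9 to 15 months (0.17, adjusted p = 0.0341) and Ccl9 from 24 to 28 months (-0.14, adjusted p = 0.0919) passed. With only the 2 ages fitted, Cxcr3 from 15 to 24 months (0.30, adjusted p = 0.0487), Ccr1 from 15 to 24 months (0.17, adjusted p = 0.0792) and Cxcr5 from 24 to 28 months (-0.66, adjusted p = 0.0743) passed. In DESeq2, Ccl9 from 3 to 9 months (0.15, adjusted p = 0.0964) and Ackr3 from 15 to 24 months (0.18, adjusted p = 0.0886) passed. Without the 10 mice that stood apart, Cxcr3 from 15 to 24 months (0.35, adjusted p = 0.0898) passed. With no filter on low counts 4 genes otherwise not tested passed from 3 to 28 months, Cxcl3 at 1.51 (adjusted p = 0.0669), Cxcl1 at 1.16 (adjusted p = 0.0115), Cxcl2 at 1.06 (adjusted p = 0.028) and Ccr8 at 1.24 (adjusted p = 0.00117). Genes under about 1 CPM rest on few reads, and their differences have large errors.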
